A study of Mus musculus with 9 samples.

Results

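The genes described here are 10 members of a growth-control circuit: the transcription factors Mycn and Myc, their partner Max, the antagonists Mxd3 and Mxd4, the D-type cyclins Ccnd1, Ccnd2 and Ccnd3, and the kinases Cdk4 and Cdk6. They were chosen by name, as every array feature annotated with 1 of these symbols, and features of a gene were averaged. All 10 were measured, by 38 features, among 19087 named genes on the array. The tissue was cerebellum at postnatal day 20 from mice of the medulloblastoma strain SmoA1, which carries an activated form of the Hedgehog transducer Smoothened, with 5 arrays for Pycard wild-type and 4 for Pycard knockout. Pycard encodes ASC, an adaptor of the inflammasome. Every array set 1 such sample in Cy5 against the same Cy3 reference, pooled wildtype cerebella of postnatal day 16, and no array exchanged the dyes. Both genotypes therefore share the SmoA1 strain, the age and the reference. The labels do not state the promoter that drives SmoA1, the sex of the animals or that each array was a separate animal, so a p-value here reflects variation among 9 hybridised samples and may be technical in part. Values are log2 ratios, sample over pool, for 1 gene, so 0 means the level of the pool and 1 means a doubling.

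Myc proteins bind DNA as dimers with Max, at E-boxes, and activate genes for growth and ribosome production. Mxd proteins bind Max as well and recruit corepressors to the same sites, so the balance between Myc and Mxd partners sets the output. D-type cyclins bind Cdk4 or Cdk6, and the active complex phosphorylates the retinoblastoma protein, which releases E2F factors and lets the cell leave G1. In the cerebellum, granule neuron progenitors divide in response to Sonic hedgehog, and Mycn, Ccnd1 and Ccnd2 are known parts of that response.

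Promoter windows from RefSeq, assembly GRCm38.p6, covering 250 bases before to 50 bases after a start, matched 7 of the 10 genes in 8 windows, and Myc, Ccnd1 and Ccnd2 had no entry there. Windows were searched on both strands for the E-box CACGTG, which Myc and Mxd dimers with Max can bind, for the E2F words TTTGGCGC and TTTCGCGC, and for the Gli word GACCACCCA. A match is a description of the letters. An E-box lay in the windows of Max, Mxd4, Cdk4 and Cdk6, and in 7.15% of all 32851 windows. The Cdk4 window held 4 of them, and 8 of all windows (0.0244%) held 4 or more. The window of Mycn held 3 E2F words, of which the second is TTTCGCGC on the opposite strand and overlaps the first, a TTTGGCGC, and 0.813% of all windows held at least 1. The Gli word, in 0.253% of all windows, was in none of these 8, and the windows of Mxd3 and Ccnd3 held none of the searched words. The stretches with matches are shown because they place the network's own binding word, or that of E2F, in or beside genes of the network. Capitals mark the matched words, each strand is read 5′ to 3′ along the gene, and the coordinates are of GRCm38.p6. The Cdk4 stretch is chr10:127063355-127063532 on the plus strand, that of Mycn chr12:12941991-12942025 on the minus strand, that of Max chr12:76962234-76962263 on the minus strand, that of Mxd4 chr5:34187912-34187941 on the minus strand and that of Cdk6 chr5:3343661-3343690 on the plus strand. The Max match spans the start that its window was drawn around, and the others lie upstream of theirs. For Max and Cdk6 that start lies inside the annotated gene, which begins at 76962323 (Max, minus strand) and 3341004 (Cdk6, plus strand). The matches of Max and Cdk6 therefore lie inside these genes.
Cdk4: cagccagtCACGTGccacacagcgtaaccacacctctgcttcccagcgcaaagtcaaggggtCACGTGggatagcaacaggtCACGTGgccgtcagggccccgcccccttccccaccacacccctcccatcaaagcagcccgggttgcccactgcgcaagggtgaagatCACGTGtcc
Mycn: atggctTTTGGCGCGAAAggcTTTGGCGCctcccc
Max: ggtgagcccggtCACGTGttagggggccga
Mxd4: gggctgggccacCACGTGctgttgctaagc
Cdk6: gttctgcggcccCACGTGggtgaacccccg

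Pycard itself separated the groups, with a wild-type mean of 1.08 ± 0.26 (SD, n = 5) and a knockout mean of -2.39 ± 0.64 (SD, n = 4) (limma adjusted p = 0.0131). The arrays differed in how widely their ratios spread, with an SD over features from 0.552 on knockout 1 to 1.12 on wild-type 4. Of 6 cerebellar markers, 2 were higher than the pool in wild-type and 2 were lower, where 12.9% and 12.1% of all values were, and their mean was 0.18 in wild-type and 0.15 in knockout. Of 8 granule progenitor markers, 4 passed as higher than the pool in wild-type and 1 as lower, and their mean was 1.04 in wild-type and 0.71 in knockout. The mean of 8 mature granule neuron markers was -0.40 in wild-type and -0.19 in knockout. In bulk tissue, fewer cells of a type and less RNA per cell cannot be told apart.

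Mycn, the Myc family member most tied to granule progenitors, was high on all wild-type arrays. Its log2 ratios in wild-type replicates 1 to 5 were 2.74, 2.83, 2.40, 3.45 and 3.27. In knockout replicates 1 to 4 they were 0.69, 2.30, 2.26 and 1.83. The highest knockout array lay below the lowest wild-type array, and Mycn was the only 1 of the 10 genes whose groups did not overlap. Over all 30654 tested values, 0.946% had groups that did not overlap with knockout lower. The wild-type mean was 2.94 ± 0.42 (SD, n = 5) and the knockout mean 1.77 ± 0.75 (SD, n = 4), which are 7.67 and 3.41 times the reference. Knockout minus wild-type came to -1.17 (SE 0.36, 95% interval -2.0 to -0.33), or 2.25-fold, and limma did not call it after adjustment over all values (adjusted p = 0.917). Both Mycn features gave this difference, at -1.14 and -1.19. The difference was -0.81 without knockout 1 and -0.79 with quantile normalization.

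**Figure D1:**
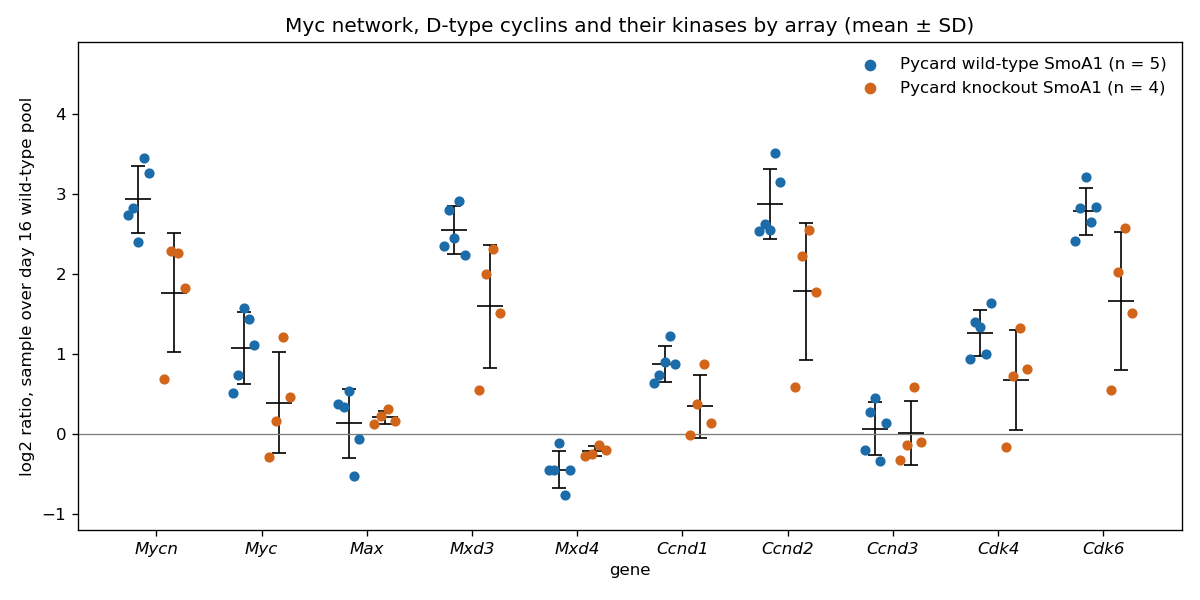
Log2 ratio of sample over the day 16 pool (vertical axis) for each of the 10 genes (horizontal axis), with 1 point per array and bars for the mean ± SD. Mycn, Mxd3, Ccnd2 and Cdk6 stand above 0 on all 9 arrays, and knockout 1 is the lowest array for each of these 4.

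Myc, the broadly expressed founder of the family, stood nearer to the pool than Mycn. Its log2 ratios were 0.51, 0.74, 1.57, 1.44 and 1.12 in wild-type and -0.29, 0.17, 1.22 and 0.47 in knockout. In this average over features the groups overlapped, since knockout 3 was higher than wild-type 1, 2 and 5. The means were 1.08 ± 0.45 (SD, n = 5) and 0.39 ± 0.63 (SD, n = 4), and knockout differed by -0.68 (SE 0.34; 95% interval from -1.45 to 0.08; adjusted p = 0.919 by limma).

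Myc was covered by 12 features, and they did not all follow 1 pattern. A set of 10 moved together, with no correlation among them under 0.925 over the 9 arrays, and averaged 1.78 on wild-type 3 and 1.41 on knockout 3. The Myc average used throughout rests mostly on these 10. The feature numbered 7077 read 0.41 and 0.19 on these arrays. On that feature knockout 3 lay below every wild-type array, and the groups overlapped through knockout 4, at 0.62. The mean of the 10 exceeded feature 7077 by 1.37 on wild-type 3 and by 1.22 on knockout 3, and on the other 7 arrays the gap lay between -0.23 and 0.13. Both arrays with a wide gap carry replicate number 3. The knockout minus wild-type difference was -0.69 for the set of 10, -0.84 for feature 7077 and -0.45 for feature 39136, so the direction was shared while the size was not. The feature sequences were not used here, and whether the 10 are copies of 1 probe was not tested.

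**Figure D2:**
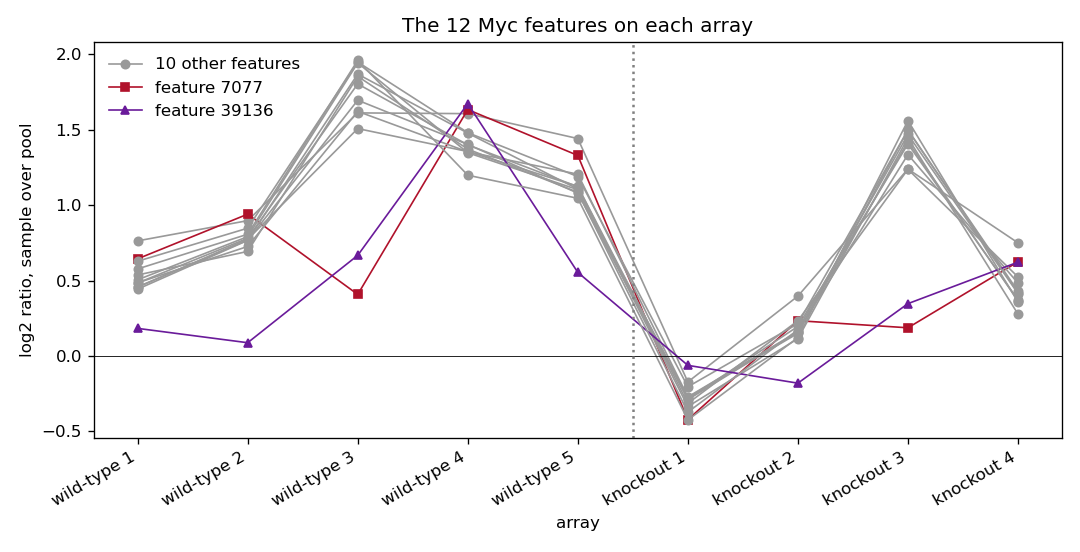
Log2 ratio over the pool (vertical axis) of the 12 Myc features on each array (horizontal axis), with a line joining the points of 1 feature only to make it traceable. On wild-type 3 and knockout 3 the 10 grey features lie near 1.78 and 1.41, while feature 7077 lies at 0.41 and 0.19.

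Max, the shared dimer partner, stayed near the level of the pool. Its ratios were 0.38, 0.34, 0.54, -0.53 and -0.06 in wild-type and 0.13, 0.23, 0.32 and 0.16 in knockout, on 1 feature. All 4 knockout values lay inside the wild-type range. The means were 0.14 ± 0.43 (SD, n = 5) and 0.21 ± 0.08 (SD, n = 4), and the difference was 0.08 (SE 0.21; 95% interval from -0.41 to 0.56; adjusted p = 0.982 by limma). It turned to -0.09 without wild-type 4, which held the lowest value.

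The antagonists Mxd3 and Mxd4 stood on opposite sides of the pool. Mxd3, the Mxd gene known from dividing cells, read 2.35, 2.81, 2.45, 2.92 and 2.24 in wild-type and 0.56, 2.00, 2.32 and 1.51 in knockout. Knockout 3 was the only array of its group to reach the wild-type range. The means were 2.55 ± 0.30 (SD, n = 5) and 1.60 ± 0.77 (SD, n = 4), and knockout differed by -0.96 (SE 0.34; 95% interval from -1.74 to -0.17; adjusted p = 0.917 by limma), or by -0.61 without knockout 1. Mxd4, which is associated with differentiated cells, read -0.45, -0.45, -0.12, -0.77 and -0.44 in wild-type and -0.27, -0.25, -0.14 and -0.20 in knockout. All 9 arrays were below the pool, and the knockout arrays were close together. The means were -0.44 ± 0.23 (SD, n = 5) and -0.22 ± 0.06 (SD, n = 4), and knockout differed by 0.23 (SE 0.13, 95% interval from -0.07 to 0.53, adjusted p = 0.932 by limma). The difference was 0.15 without wild-type 4 and 0.14 with quantile normalization.

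The 3 D-type cyclins, which bind the same kinases, differed widely in their ratios to the pool. Ccnd2 read 2.54, 2.62, 2.55, 3.51 and 3.16 in wild-type and 0.59, 2.23, 2.56 and 1.77 in knockout. Knockout 3 lay within the wild-type range and knockout 1 far below it. The means were 2.88 ± 0.44 (SD, n = 5) and 1.79 ± 0.86 (SD, n = 4), and knockout differed by -1.09 (SE 0.41; 95% interval from -2.02 to -0.16; adjusted p = 0.917 by limma), or by -0.69 without knockout 1.

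Ccnd1, the cyclin that many mitogens induce, was raised less against the pool. Its ratios were 0.64, 0.73, 0.90, 1.22 and 0.88 in wild-type and -0.01, 0.38, 0.88 and 0.13 in knockout. Knockout 3 again overlapped the wild-type arrays, and the other 3 knockout arrays lay below all of them. The means were 0.88 ± 0.22 (SD, n = 5) and 0.35 ± 0.39 (SD, n = 4), and knockout differed by -0.53 (SE 0.20; 95% interval from -0.98 to -0.07; adjusted p = 0.917 by limma), or by -0.34 on the 6 arrays titled with letters. All 10 Ccnd1 features were lower in knockout, by values from -0.58 to -0.45. Ccnd3, the cyclin best known from lymphoid cells, read -0.19, 0.28, 0.46, -0.33 and 0.14 in wild-type and -0.32, -0.13, 0.59 and -0.09 in knockout. Both groups spread around 0. The difference was -0.06 (SE 0.23, 95% interval from -0.59 to 0.47, adjusted p = 0.991 by limma), and it turned to 0.05 without knockout 1 and to 0.04 without wild-type 3.

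Of the kinases, Cdk6 stood far above the pool and Cdk4 less so. Cdk6 read 2.41, 2.83, 3.21, 2.66 and 2.84 in wild-type and 0.55, 2.03, 2.58 and 1.52 in knockout. The means were 2.79 ± 0.29 (SD, n = 5) and 1.67 ± 0.86 (SD, n = 4), and only knockout 3 reached the wild-type range. The difference was -1.12 (SE 0.38; 95% interval from -1.98 to -0.26; adjusted p = 0.917 by limma), and -0.75 without knockout 1. Its 3 features differed in size by up to 2.18 on 1 array, knockout 3, and gave differences between the genotypes from -1.22 to -0.94.

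Cdk4 read 0.95, 1.40, 1.34, 1.004 and 1.64 in wild-type and -0.17, 0.73, 1.33 and 0.81 in knockout, on 1 feature. The 3 knockout arrays other than knockout 3 lay below all wild-type arrays. The means were 1.27 ± 0.29 (SD, n = 5) and 0.68 ± 0.62 (SD, n = 4), and knockout differed by -0.59 (SE 0.29; 95% interval from -1.25 to 0.08; adjusted p = 0.919 by limma), or by -0.31 without knockout 1.

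Across the 10 genes, 8 were lower on average in knockout, as were 47.8% of all values, and Max and Mxd4 were higher. None passed limma's adjusted threshold of 0.05, which 0.0163% of all values passed. At an unadjusted p under 0.05, 5 were lower, namely Mycn, Mxd3, Ccnd1, Ccnd2 and Cdk6, against 3.31% of all values. The median difference over the 10 genes was -0.64, and 0.01 over all values tested. Replicate numbers 1 to 4 occur in both genotypes, and Mycn, Myc, Mxd3, Ccnd1, Cdk4 and Cdk6 were lower in knockout in all 4 same-number pairs, as were 8.42% of all values. The pair with number 3 differed least for Mycn (-0.14), Mxd3 (-0.13), Ccnd1 (-0.02) and Cdk4 (-0.005). In the pair with number 1 the differences of Mycn, Ccnd2 and Cdk6 were -2.04, -1.95 and -1.86. The array titles are letters for 6 arrays, 3 of each genotype, and numbers for the other 3, which may mark a batch. Exact zeros made up 6.52% to 7.35% of features on the number-titled arrays and 1.07% to 3.49% on the letter-titled arrays. Within the 6 letter-titled arrays the differences were -0.91 for Mycn, -0.91 for Mxd3, -0.78 for Ccnd2 and -1.10 for Cdk6, and none of the 10 passed. The number-titled arrays hold 1 knockout array and give no value of their own.

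**Figure D3:**
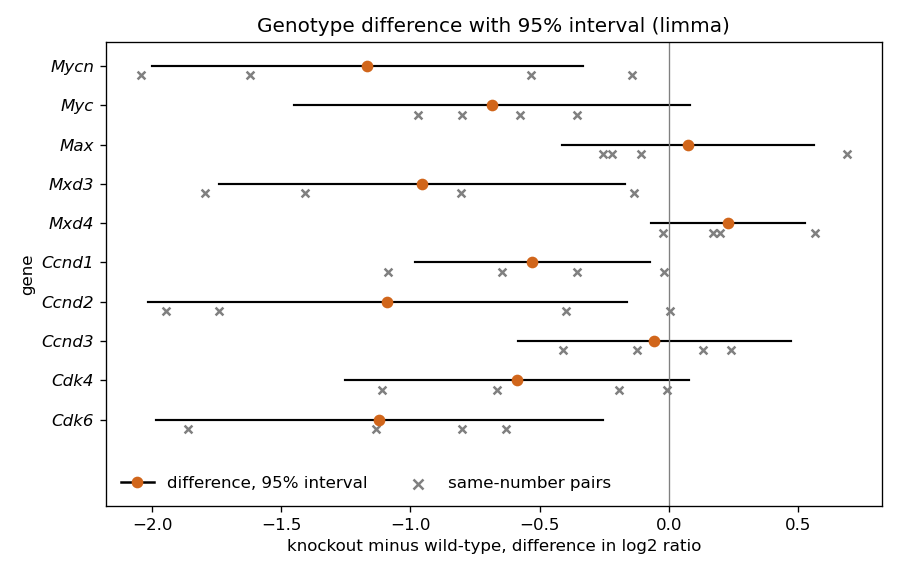
Difference in log2 ratio, knockout minus wild-type (horizontal axis), for each gene (vertical axis), with limma's 95% interval as a line and the 4 same-number pairs as crosses. The intervals of Mycn, Mxd3, Ccnd1, Ccnd2 and Cdk6 lie below 0, none of the 10 passes after adjustment, and the pair nearest to 0 has number 3 for Mycn, Myc, Mxd3, Mxd4, Ccnd1, Ccnd2, Cdk4 and Cdk6.

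Against the day 16 pool, 7 of the 10 genes were higher in wild-type, where 12.9% of all values were called higher. These were Mycn, Myc, Mxd3, Ccnd1, Ccnd2, Cdk4 and Cdk6, with limma adjusted p from 0.000244 for Mycn to 0.00915 for Myc. Mxd4 was lower than the pool (limma adjusted p = 0.00699), as were 12.1% of all values, and Max and Ccnd3 did not pass. In knockout, Mycn, Mxd3, Ccnd2 and Cdk6 were called higher than the pool (limma adjusted p = 0.0093, 0.0107, 0.0128 and 0.0127), where 4.28% of all values were, and none was called lower. That count of 4 fell to 0 without knockout 2 and to 3 without knockout 3, where Ccnd2 was lost. On the letter-titled arrays, Myc (limma adjusted p = 0.113) and Mxd4 (0.0532) no longer passed in wild-type, Cdk6 (0.0567) no longer passed in knockout, and Max passed in wild-type, at 0.42 (limma adjusted p = 0.0182). The same 4 genes were above the pool on all 9 arrays, as were 11.1% of all values. Both comparisons share the reference, whose own spread is left out, and in both of them strain, age, pooling and dye cannot be told apart.

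Ranked by ratio to the pool, which compares each gene with itself in the reference and not the levels of different genes, the wild-type order was Mycn, Ccnd2, Cdk6, Mxd3, Cdk4, Myc, Ccnd1, Max, Ccnd3 and Mxd4. Of the 9 steps between neighbours, 3 were larger than the SD of both neighbours: 1.29 from Mxd3 to Cdk4, 0.74 from Ccnd1 to Max and 0.51 from Ccnd3 to Mxd4. The other neighbours did not differ beyond their spread. In knockout the order began with Ccnd2, Mycn, Cdk6 and Mxd3 and was otherwise as in wild-type, and only the step from Mxd3 to Cdk4, of 0.92, was larger than both SDs.

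Differences between 2 members on the same array cancel a shift of the whole array, but not a difference in how widely its ratios spread. The arrays differed in that spread, so such a difference alone does not show that relatives moved unequally between the genotypes. For 5 pairs, an exact two-sided permutation was run over the 126 divisions of the arrays, with adjustment over the 5. Mxd3 minus Mxd4 was 2.80, 3.26, 2.57, 3.69 and 2.68 in wild-type and 0.83, 2.26, 2.45 and 1.71 in knockout. Every knockout array lay below every wild-type array, and how often other pairs of genes do so was not counted. The difference was -1.19, with an exact p of 0.00794, the smallest these divisions can give, and an adjusted p of 0.0397. Over the 4 same-number pairs, taken as a replicate block, the difference was -1.27 and the pair did not pass (exact sign-change adjusted p = 0.312), where no p under 0.125 is possible. With quantile normalization it was -0.78 and did not pass either (exact permutation adjusted p = 0.367). With any array other than knockout 2 left out the pair no longer passed, with differences from -1.40 to -0.86. The smallest p possible was then 0.0179 or 0.0286.

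The other 4 pairs missed the threshold. Ccnd2 minus Ccnd3 averaged 2.81 ± 0.68 (SD, n = 5) on wild-type arrays and 1.77 ± 0.62 (SD, n = 4) on knockout arrays (exact permutation p = 0.0476, adjusted p = 0.0595). Ccnd1 minus Ccnd2 was -2.001 ± 0.28 (SD, n = 5) and -1.44 ± 0.57 (SD, n = 4), with the same exact p and adjusted p. Cdk4 minus Cdk6 was -1.52 ± 0.25 (SD, n = 5) and -0.99 ± 0.32 (SD, n = 4) (exact permutation p = 0.0317, adjusted p = 0.0595). Mycn minus Myc was 1.86 ± 0.58 (SD, n = 5) and 1.38 ± 0.53 (SD, n = 4) (exact permutation p = 0.246, adjusted p = 0.246). In every tested pair, Mxd3 minus Mxd4 included, the members lay closer together on average in knockout. The part of the arrays' spread in this was not tested.

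**Figure D4:**
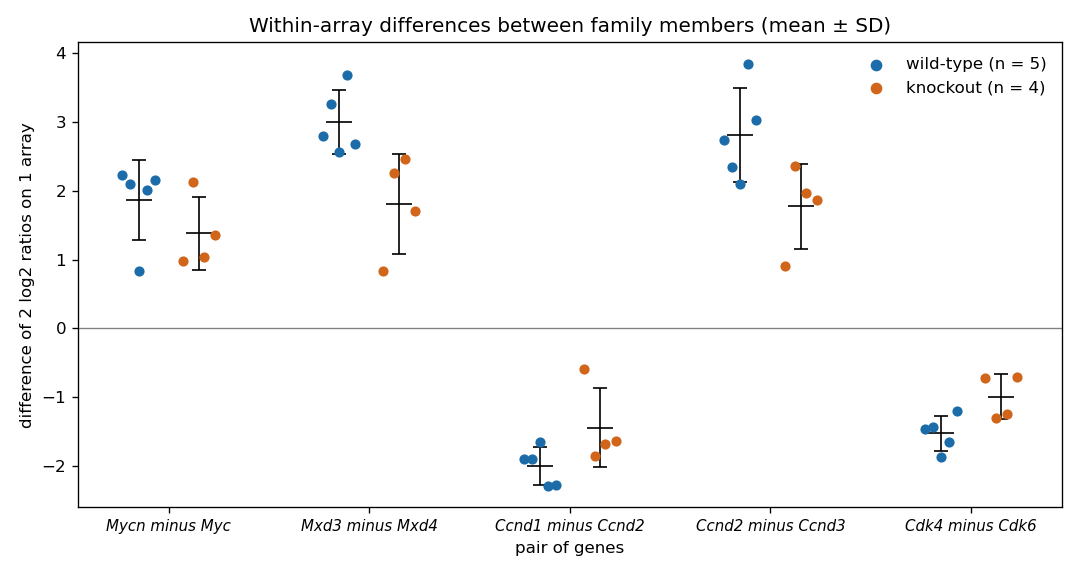
Difference between the log2 ratios of 2 genes on the same array (vertical axis) for 5 pairs (horizontal axis), with 1 point per array and bars for the mean ± SD. For Mxd3 minus Mxd4 the highest knockout array, at 2.45, lies below the lowest wild-type array, at 2.57.

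Genes of the G2 and M phases of the cell cycle mark dividing cells, and the mean of 23 of them moved with most of the network. This mean was 2.56, 2.81, 2.60, 3.35 and 2.97 in wild-type and 0.82, 2.22, 2.49 and 1.61 in knockout. All wild-type arrays were above all knockout arrays, as for Mycn, and the difference was -1.07. Of the 10 correlations with it over the 9 arrays, 7 passed an exact permutation test with adjustment over the 10. How many of all values follow this mean as closely was not counted. The count of 7 is therefore not shown to be particular to these genes.

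Ccnd2 followed the dividing-cell mean with r = 0.987 and rho = 0.95 (exact permutation adjusted p = 9.65e-05 for r and 0.00176 for rho). Mycn followed it with r = 0.976 and rho = 0.967 (exact permutation adjusted p = 9.65e-05 for r and 0.00165 for rho). For Mxd3, Ccnd1, Cdk6, Cdk4 and Myc, r was 0.959, 0.936, 0.907, 0.822 and 0.797 and rho was 0.833, 0.883, 0.833, 0.783 and 0.75 (exact permutation adjusted p for r from 0.00041 to 0.0154). Ccnd3 (r = 0.288), Max (r = -0.288) and Mxd4 (r = -0.558) did not pass. Without the 2 arrays farthest from the median, knockout 1 and knockout 4, only Mycn (r = 0.928) and Ccnd2 (r = 0.964) passed by r. No gene passed there by rho (exact permutation adjusted p = 0.0615 for Mycn and for Ccnd2). Within the 6 arrays titled with letters, Mycn (r = 0.98), Mxd3 (0.996), Ccnd1 (0.898), Ccnd2 (0.992), Cdk4 (0.957) and Cdk6 (0.955) passed by r. By rho only Mxd3 passed there (exact permutation adjusted p = 0.0278). The 3 arrays titled with numbers are too few for a value. With the genotype means subtracted, Mycn (r = 0.945), Ccnd2 (0.981), Mxd3 (0.919), Ccnd1 (0.87) and Cdk6 (0.8) still passed by r. By rho Cdk6 did not pass there (permutation adjusted p = 0.127). Values with group means taken out are not freely exchangeable between the genotypes, so the p-values of this setting are approximate. With quantile normalization, Mxd4 passed (r = -0.779, exact permutation adjusted p = 0.0444), and Myc (r = 0.319), Ccnd1 (0.629) and Cdk4 (0.625) did not.

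Relative to the dividing-cell mean on the same array, Mycn stood at 0.08 ± 0.18 (SD, n = 5) on wild-type arrays and at -0.01 ± 0.20 (SD, n = 4) on knockout arrays. Ccnd2 stood at 0.02 ± 0.16 (SD, n = 5) and 0.00 ± 0.17 (SD, n = 4) in the same order. Mxd3 and Cdk6 differed between the genotypes by 0.12 and -0.05 on this scale. For these 4 genes the difference left after the subtraction was smaller than the SD of the wild-type arrays. A gene with equal ratios in both genotypes would come out higher in knockout on this scale, by the size of the dividing-cell mean's own difference of -1.07. Max, Mxd4 and Ccnd3 differed by 1.15, 1.303 and 1.02, and Ccnd1, Cdk4 and Myc lay between, at 0.55, 0.49 and 0.39. The part of dividing-cell number in the differences was not tested.

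**Figure D5:**
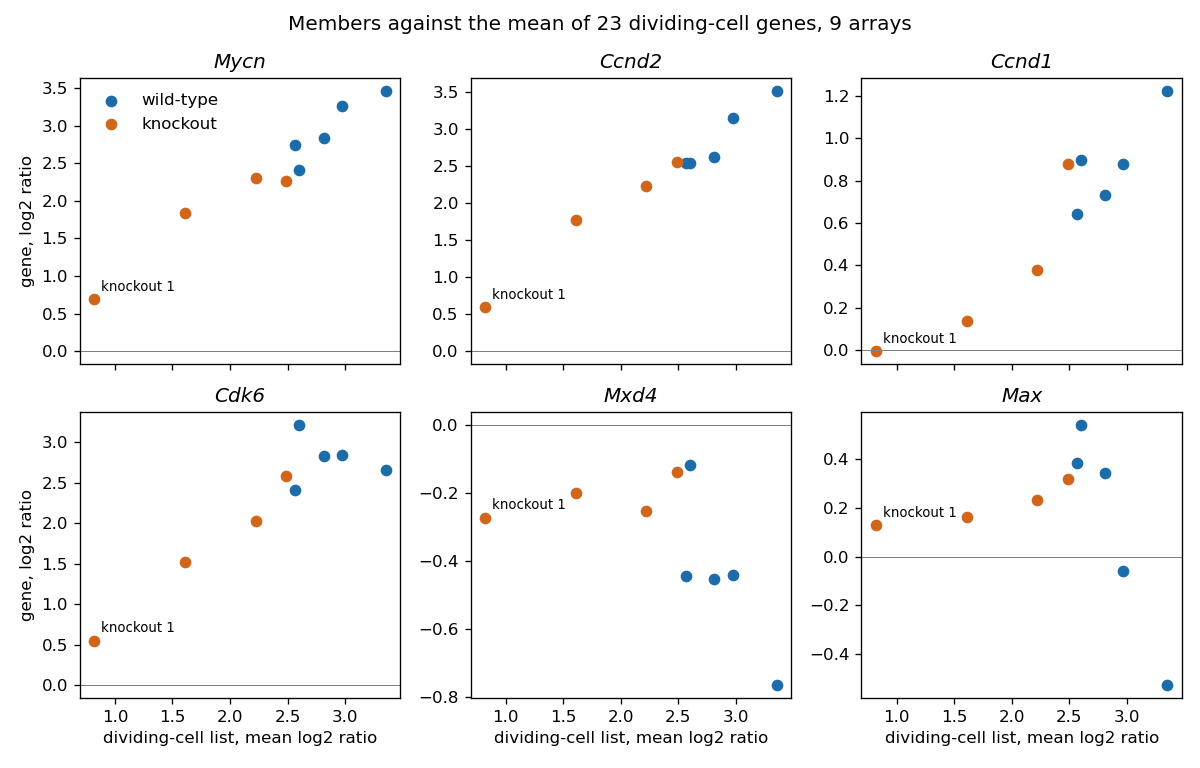
Log2 ratio of 6 of the genes (vertical axes) against the mean log2 ratio of 23 dividing-cell genes (horizontal axes), with 1 point per array. Mycn and Ccnd2 follow the mean closely on all 9 arrays (r = 0.976 and 0.987), while Mxd4 and Max do not rise with it (r = -0.558 and -0.288).

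The rest of the Myc and Max network differed less on average. Of 8 other members, 6 were lower in knockout, none was called by limma and the median difference was -0.10. Mycl, the third Myc family gene, had a wild-type mean of 1.81 ± 0.55 (SD, n = 5) and a knockout mean of 0.96 ± 0.53 (SD, n = 4), and limma's adjusted p for the gap of -0.85 was 0.917. Mxi1, a further Max-binding antagonist, differed by -0.17. Of 12 cofactors and corepressors, 9 were lower and the median was -0.20. Hdac1, a histone deacetylase of the corepressor complexes, read 0.34 ± 0.18 (SD, n = 5) and 0.01 ± 0.11 (SD, n = 4). Its groups did not overlap, as for 0.946% of all values with knockout lower. Hdac1 was picked by its p and difference between these groups, so the lack of overlap is no separate result. How many of the list do so was not counted. Wdr5, a chromatin cofactor of Myc, differed by -0.33. Of 7 genes of Myc protein turnover, 4 were lower. Among them Aurka, a mitotic kinase that stabilises N-Myc, differed by -1.26, and Skp2, a ubiquitin ligase subunit, by -0.68, and neither passed.

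Genes that textbooks list as Myc targets were mostly above the pool in wild-type, with 15 of 25 called higher and none called lower, beside 12.9% and 12.1% of all values. Between the genotypes 22 of the 25 were lower in knockout, with a median of -0.21, and none passed limma's adjusted threshold. Hk2, a hexokinase, had a wild-type mean of 0.60 ± 0.28 (SD, n = 5) and a knockout mean of -0.17 ± 0.43 (SD, n = 4), and limma's adjusted p for the gap of -0.78 was 0.917. Shmt1, an enzyme of one-carbon metabolism, differed by -0.78, and Eif4a1, a translation initiation helicase, by -0.32.

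Downstream of the D-type cyclins, 9 of 10 other cyclins and kinases of G1 and S phase were lower in knockout, with a median of -0.16, and none was called. Ccna2, the cyclin of S phase and G2, had a wild-type mean of 3.41 ± 0.38 (SD, n = 5) and a knockout mean of 2.36 ± 0.74 (SD, n = 4) (limma adjusted p = 0.917). Its groups did not overlap, as for 0.946% of all values with knockout lower, but it too was picked by its p and difference between them. Cdk2 differed by -0.69, and Cdk7, of the kinase complex that activates other Cdks, by -0.36. Of 8 genes for turnover, folding or export of D-type cyclins, 6 were lower with a median of -0.08, and Xpo1, the nuclear exporter, differed by -0.24 and Cul4a, a scaffold of ubiquitin ligases, by -0.17. All 9 measured genes of a Hedgehog list were lower, with a median of -0.49 and none called. The list holds Gas1 and Boc beside output genes, so it is not a measure of Hedgehog output alone. Gli1, Ptch1 and Hhip differed by -0.49, -0.31 and -0.03. The largest differences in this list were of Atoh1, the transcription factor of granule progenitors (-1.49), Sfrp1, a secreted Wnt modulator (-1.21), and Cxcr4, a chemokine receptor (-1.21). The 23 dividing-cell genes had the median of -1.19, and 22 of them were lower, with none called. Of these, Cenpe, Aurkb, Kif2c and Plk1, which act in mitosis, differed by -1.65, -1.63, -1.37 and -1.19.

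The genes whose pattern over the 9 arrays was most like that of a member were sought among 15340 candidates, as a description by Pearson r, and the arrays share their reference. Closest to Mycn were Ckap2l (0.992), Cep55 (0.992), Ckap2 (0.991), Pou3f2 (0.985) and Aurkb (0.985). Closest to Ccnd2 were Ypel1 (0.997), Aurkb (0.995), Cep55 (0.993), Hmgb2 (0.991) and Lockd (0.990). Aurkb, a mitotic kinase, and Cep55, which acts in the final separation of daughter cells, were thus in both sets. Closest to Ccnd1 were Snrpf (0.992), Traip (0.992), Nasp (0.988), Bok (0.988) and Wdr5 (0.988). Nasp is a chaperone of histones, and Snrpf a core protein of the spliceosome. Closest to Myc were Dnph1 (0.980), Kars (0.976), Lmnb2 (0.970), Tmem183a (0.967) and G3bp1 (0.966), none of which was in the other 3 sets. Kars encodes the lysyl-tRNA synthetase, and Lmnb2 a lamin of the nuclear envelope.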

How the data were processed

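RNA from cerebellum was measured on 9 Agilent arrays with 2 colours. The authors deposited log ratios, taken here as log2, a base read from the size of the values, with sample over reference as the dyes in the labels give it. The submitters' processing notes name Agilent Feature Extraction, while version, background correction and dye normalization were not given in the sources used here. No signal intensity was used here, so dim or saturated spots were not set apart, and precision rests on how many arrays there are.

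The platform annotation gave 1 symbol for 33653 of 45220 features, several for 56 and none for 11511. Features of 1 symbol were averaged and the rest kept singly, giving 30654 values. All 9 arrays entered 1 fit with no covariate, by lmFit and eBayes of limma 3.58.1 (R 4.3.3), two-sided, with Benjamini-Hochberg adjustment over all of them, a threshold of 0.05 and 95% intervals. The code was run on simulated arrays with independent noise and shifts far larger, against the spread, than the members' differences. That run does not show how differences of the members' size would be called. Exact permutation tests used Python 3.11.15 with numpy 2.4.6 and scipy 1.17.1. Promoter windows came from RefSeq and were matched by gene symbol.

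The members and gene lists were chosen with earlier results of these data known. All members are named; from each pathway list, the 2 genes with the smallest unadjusted p and the 2 with the largest difference; and the 5 genes most correlated with each of Mycn, Myc, Ccnd1 and Ccnd2, predicted transcripts and genes with exact zeros left out. Gas1, Boc, Gli1, Ptch1 and Hhip of the Hedgehog list are named beside these. From each marker list only the summary is given.

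The labels do not say what the replicate numbers stand for. Deviations from the group means of same-number arrays correlated at 0.244, 0.247, 0.446 and 0.304. Of arrays with different numbers, wild-type 5 and knockout 4 correlated at 0.289, wild-type 1 and knockout 2 at 0.261, and wild-type 2 and knockout 1 at 0.191. The others lay between -0.292 and 0.012. These values do not settle whether the numbers pair the samples, so same-number pairs were used only beside the main fit, which has no pairing. The alternatives were blocks on replicate number and title style, the letter-titled arrays alone, median centring, leaving out each array in turn, quantile normalization, median of features, exact zeros as missing, array weights, a trended robust prior, named genes only and a filter on SD. Single features were added after seeing the data.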

Additional observations from a re-analysis of the deposited data

How the results depend on the processing

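Over 20 settings, the 10 genes gave 199 knockout minus wild-type differences, of which 194 kept their direction and 5 reversed, and none passed. The lowest adjusted p was 0.27, for Ccnd1 with array weights. With quantile normalization the differences of Mycn, Ccnd2, Cdk6 and Mxd3 were smaller than in the main setting, at -0.79, -0.80, -0.74 and -0.64. The reversals were of Max, at -0.19 on the letter-titled arrays and -0.10 with array weights, and with arrays left out in turn, which gave -0.0895 to 0.176 for Max and -0.25 to 0.0531 for Ccnd3. With the replicate block, 0 of the 10 genes passed, as without it, Mycn differed by -1.08 (limma adjusted p = 0.751), and 0 of all values were called in place of 5. Of the members called against the reference, wild-type gave 7 to 9 over all settings run, 8 with each array left out, and knockout gave 0 to 5 with each array left out and 6 with array weights. The genes called also changed: on the letter-titled arrays Myc and Mxd4 were lost and Max gained in wild-type and Cdk6 lost in knockout, array weights added Max in wild-type and Mxd4, as lower, and Cdk4 in knockout, and Cdk4 was added in knockout without knockout 1. Mxd4 was not tested where the lowest SDs were left out. The tested pairs of members that passed, 1 in the main setting, were 0 on the letter-titled arrays, 0 with quantile normalization, 0 with the replicate block and 0 to 4 with each array left out. For Mxd3 minus Mxd4 the replicate block gave -1.27, where sign changes of 4 pairs allow no p under 0.125, quantile normalization -0.78 and the letter-titled arrays -1.03, where the smallest p is 0.1. Correlations with the dividing-cell mean that passed by r were 7, and 2 without the 2 farthest arrays, where none passed by rho. Ccnd3 reversed there (-0.32) and with quantile normalization (-0.078), as did Max on the letter-titled arrays (0.76), where neither gene had passed in the main setting. With quantile normalization Myc (r = 0.319), Ccnd1 (0.629) and Cdk4 (0.625) no longer passed while Mxd4 did (r = -0.779, exact permutation adjusted p = 0.0444), and with genotype means subtracted Myc (0.668) and Cdk4 (0.716). The causes were not tested. Without signal intensities, it is not known which spots were dim.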

Other observations

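Markers of other cell types were set beside the genes described above, as lists with no test of their own. All 6 measured Purkinje cell markers were higher on average in knockout, with list means of -0.95 in wild-type and -0.49 in knockout. The list mean ran from -1.121 to -0.825 within wild-type and from -1.124 to -0.196 within knockout, so the groups overlapped. All 6 were called below the pool in wild-type, as were 12.1% of all values. All 6 oligodendrocyte markers were higher in knockout as well, with list means of -1.195 in wild-type and -0.724 in knockout. Of 6 inhibitory interneuron markers 5 were higher, and of 7 astrocyte and Bergmann glia markers 4. All 6 microglia and macrophage markers were lower on average in knockout, with list means of 0.53 in wild-type and 0.05 in knockout. That mean ran from 0.32 to 0.75 within wild-type and from -0.39 to 0.50 within knockout. Endothelial markers differed little, with a median difference of 0.10, and those of T and B cells, choroid plexus and red blood cells by -0.17, -0.22 and -0.25. The choroid plexus mean ran from -1.96 to 0.60 within wild-type and from -2.32 to 0.24 within knockout, so it varied more between arrays of 1 genotype than between the genotypes. None of the genes in these lists was called between the genotypes. The part of these cell types in the members' differences was not tested.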
